A study of Sus scrofa with 22 samples.

Results

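Day 30 cloned pig fetuses were compared with day 6 cloned pig embryos across all genes, as a contrast between a body with formed tissues and a blastocyst. The comparison used 5 of the 22 RNA-seq libraries of the study, namely the 3 libraries titled day30-normal and the 2 libraries titled WT. The day30-normal libraries were made from body tissue of male fetuses at embryonic day 30. The WT libraries were made from male blastocysts grown in vitro to day 6. Both kinds of sample came from cloning, per the series' design text, which gives the day 6 embryos as cloned or fertilized; the labels do not spell out WT, which is read here as cloned embryos without the Kdm4A addition or the XIST knockout of the other embryo groups. The labels give neither the criterion for a normal fetus, nor the part of the body sampled, nor the donor cells, nor how many embryos went into a library. They also do not say whether libraries of a group came from separate animals or embryo pools, so the p-values measure only the spread between these libraries, which may be technical. Fetal libraries were built from total RNA with an RNA kit, and embryo libraries from embryo cDNA with a DNA kit. Stage, tissue, growth in the uterus or in culture, and library preparation all changed together between the groups and cannot be told apart.

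In somatic cell nuclear transfer the nucleus of a body cell is placed in an enucleated oocyte, and the embryo must silence the donor cell's programme and start that of early development. The blastocyst consists of an outer epithelium, the trophectoderm, which later forms the placenta, and an inner cell mass that gives rise to the epiblast and hypoblast. After gastrulation the epiblast derivatives form mesenchyme, muscle, nerve, blood and the other tissues of the body, patterned along their axes by HOX and other homeobox genes.

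At day 30 the libraries held abundant transcripts of collagens and other matrix proteins, of HOX and other patterning genes, and of muscle, nerve, endothelium and red blood cells, most of which had no count at day 6. The day 6 libraries held POU5F1, CDX2 and KLF17, which had no count at day 30. Pluripotency genes did not all go this way: 3 of 9 tested rose, SOX2 among them, and NANOG had no count in all 5 libraries. Very high levels of the simple-epithelium keratins KRT8 and KRT18 and of the claudins CLDN4, CLDN6 and CLDN7 were also present at day 6. Transporter, enzyme and cell-surface genes such as SLC28A3, CDA and TSPAN1 were on at day 6 and off at day 30.

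Transcript records were joined to gene symbols by RefSeq accession, and levels are CPM (a gene's count set against the scaled size of its library, with edgeR's trimmed-mean factors, TMM). Of 14389 matched genes, 9124 passed the filter on low counts and were tested with edgeR's quasi-likelihood test with Benjamini-Hochberg adjustment at 0.05 (edgeR below). At day 30, 4985 genes (54.6%) were higher and 2015 (22.1%) lower than at day 6, and the median log2 fold change over all genes tested was 2.47, so a positive value on its own did not set a gene apart. Counts over a list below are over its members that passed the filter, which a gene could pass through 1 group alone. They describe the list and do not test it, and each stands beside the 54.6% higher and 22.1% lower of all genes tested. When only library totals were used for scaling, 6200 genes were higher and 1125 lower with a median of 4.05, and limma on log2(TPM + 1) gave 6889 higher and 966 lower; the share of calls that were higher was 71.2% in the TMM-scaled fit, 84.6% with library totals and 87.7% with TPM. Large differences were therefore set apart by a second rule. A gene was called on in a group when every library held at least 10 CPM and off when every library held under 0.5 CPM, which is a difference of at least 20-fold.

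By that rule 1466 genes, 10.2% of all matched genes, were on at day 30 and off at day 6, and 52 genes (0.361%) were off at day 30 and on at day 6. The first set was 23.3% of the 6298 genes that reached 10 CPM in every day30-normal library. The second was 1.58% of the 3292 genes that reached 10 CPM in every WT library. At or above 10 CPM in all 5 libraries were 2807 genes. Of the 1466 genes, 1257 had no count in either WT library. For genes without a count in one group the fold is given as a lower bound, computed against a floor of 3 counts over that group, which was 0.128 CPM in day30-normal and 0.421 CPM in WT. These bounds cover counting error only. The rule cuts a continuous range: 221 further genes at 10 CPM in every day30-normal library had a highest WT value between 0.5 and 1 CPM, and 79 genes off in WT had their lowest day30-normal value between 9 and 10 CPM, against 72 members between 10 and 11 CPM.

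**Figure D1:**
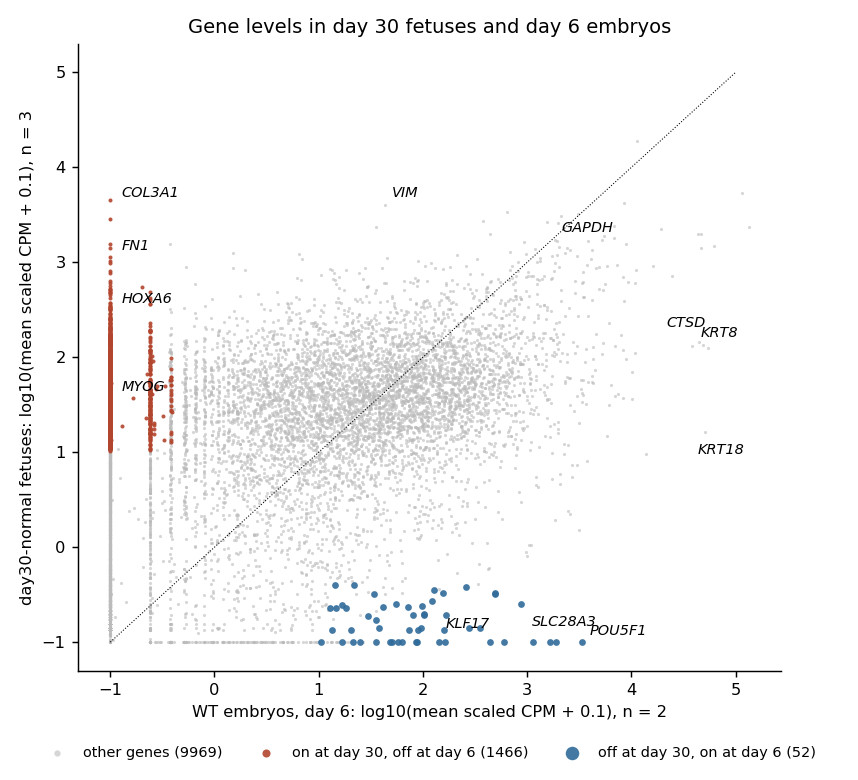
Mean level of each gene in day30-normal fetuses (vertical axis, 3 libraries) against WT embryos (horizontal axis, 2 libraries), both as log10(scaled CPM + 0.1), leaving out 2902 genes without a count in all 5 libraries. The 1466 genes on at day 30 and off at day 6 form columns at the left edge, the 52 genes with the opposite pattern lie along the bottom, and KRT8, KRT18 and CTSD lie at the far right.

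The libraries themselves differed in make-up. Total expected counts were 5684882, 9363858 and 7582525 in day30-normal and 7703587 and 8799395 in WT, of which 66.6 to 66.8% and 83.0 to 84.8% belonged to matched records. Genes with at least 1 count numbered 10420 to 10641 in day30-normal libraries and 6171 and 6177 in WT libraries, and the 10 most abundant genes took 8.06 to 8.54% of matched counts in day30-normal and 28.8 and 36.8% in WT. Spearman correlations across genes were 0.986 to 0.989 among day30-normal libraries and 0.88 between the WT libraries, and the WT pair differed by far more than sampling noise (chi-square of 155 per degree of freedom, against 5.09 to 7.8 among day30-normal libraries). Record length moved with the contrast. With the tested genes split by record length into 10 groups of near-equal size, the group of the shortest records, 282 to 1012 bases, was the lowest: its median log2 fold change was -0.66, and 31.3% were higher and 44.7% lower at day 30. In the group of the longest records, from 5097 bases, the median was 6.77, 81.9% were higher and 2.41% lower. The part of length and library preparation in any single result was not tested, and values bearing on it are given beside the results below.

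Genes of connective tissue were among those with the largest on/off differences. Of 19 tested genes of fibroblasts and extracellular matrix, 19 rose and 0 fell, and 14 were on at day 30 and off at day 6. Their median log2 fold change was 11.94, against 2.47 over all genes; with genes absent from 1 group set at their bound the medians were 8.85 and 2.07. COL3A1, the chain of type III collagen of soft connective tissue (chromosome 15, 93556914 to 93595678 in Sscrofa11.1), had 4138, 4552 and 4779 CPM in day30-normal libraries and no count in either WT library, at least 10743-fold higher at day 30 (edgeR adjusted p = 0.000138). COL1A2, a chain of type I collagen, had 2516, 2756 and 3258 CPM in day30-normal libraries and none in WT, at least 6802-fold higher. FN1, the matrix glycoprotein fibronectin, had 1394, 1643 and 1606 CPM and none in WT. Every day30-normal library was far above both WT libraries for these genes, and the spread among the 3 fetal libraries was small beside the difference. SPARC, a collagen-binding matrix protein, was at least 2381-fold higher, POSTN (periostin) at least 1850-fold and the leucine-rich proteoglycan LUM (lumican) at least 1104-fold. VIM, the intermediate filament of mesenchymal cells, was present at both stages, with 3851, 3978 and 4364 CPM in day30-normal libraries and 39.1 and 47.2 CPM in WT libraries. Its log2 fold change was 6.56 ± 0.19 (SE; edgeR adjusted p = 0.000121); VIM lies outside the rule for named genes and was chosen after its values were seen.

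Cartilage and skeletal patterning genes rose in the same way. Of 9 tested genes of cartilage and bone, 9 rose and 7 were on/off, with a median log2 fold change of 11.3 (7.14 at the bounds). COL11A1, a minor fibrillar collagen of cartilage, had 659, 609 and 650 CPM in day30-normal libraries and none in WT. SOX9, the transcription factor that starts chondrocyte differentiation, had 66.0, 68.4 and 43.5 CPM in day30-normal libraries and none in WT, at least 141-fold higher (edgeR adjusted p = 0.000542). HAPLN1, which links hyaluronan to proteoglycans, was at least 284-fold higher. COL1A1 and COL2A1 had no matched record and were not analysed here.

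HOX genes, which give cells their position along the head-to-tail and limb axes, rose as a family. Of 39 HOX symbols 26 were matched; of the 25 tested, 22 rose and 0 fell, 13 were on/off, and the median log2 fold change was 9.67 (5.66 at the bounds). HOXA6 had 418, 355 and 359 CPM in day30-normal libraries and none in WT, at least 884-fold higher (edgeR adjusted p = 0.000192). HOXA5 was at least 495-fold higher and HOXA10 at least 377-fold higher. HOXD13, the most distal HOXD gene and active in the digits and the tail end, had 117, 138 and 138 CPM in day30-normal libraries and 0.276 and 0 CPM in WT libraries. Low members were HOXA2 and HOXC5, between 4.26 and 8.61 CPM in day30-normal libraries and without a count in WT. HOXA13 was also low, without a count in WT. On the scale of all 22 libraries it had 4.16, 7.78 and 6.71 CPM in day30-normal libraries. The 3 tested members that did not pass were HOXA4, HOXB13 and HOXD9. HOXA4 had 4.22, 5.33 and 5.45 CPM in day30-normal libraries and 0.551 and 13.7 CPM in WT libraries, so the groups overlapped. HOXD9 had 71.2, 54.7 and 62.0 CPM against 11.8 and 0.286 CPM in WT libraries, where the WT spread kept the edgeR adjusted p at 0.0555. HOXB1 was matched but not tested, at 0.253 to 0.522 CPM in day30-normal libraries and 0 in WT.

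Other patterning and signalling genes followed. Of 23 tested T-box and homeobox patterning genes, 22 rose and 0 fell, and 13 were on/off; of 23 tested genes of body-axis signalling, 20 rose and 0 fell, and 14 were on/off. SHOX2, a limb and heart homeobox gene, had 160, 173 and 144 CPM in day30-normal libraries and none in WT. TBX15, a T-box factor of skin and limb mesenchyme, was at least 299-fold higher. Both of the secreted Wnt antagonists SFRP1 and SFRP2 were on/off. SFRP1 had 479, 517 and 574 CPM in day30-normal libraries and none in WT. The ligand WNT5A was at least 286-fold higher and GLI2, a transcription factor of hedgehog signalling, at least 265-fold. SHH, the ligand of that pathway, was low at 7.26, 5.12 and 5.96 CPM in day30-normal libraries, with none in WT.

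**Figure D2:**
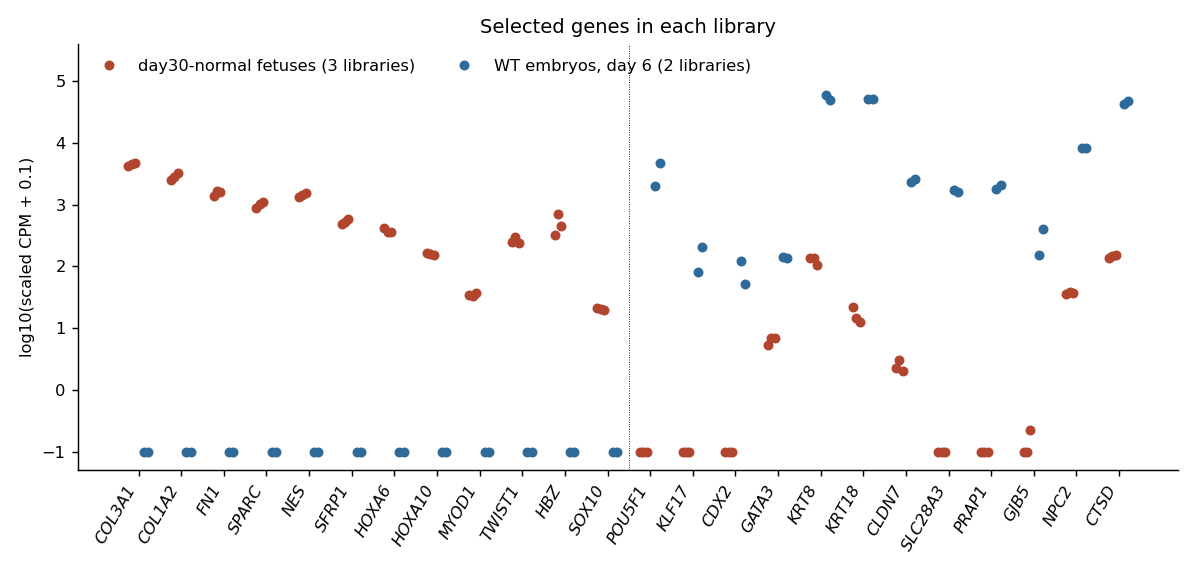
Level of 24 selected genes in each library as log10(scaled CPM + 0.1), with the 3 day30-normal libraries at the left and the 2 WT libraries at the right of each gene position; a point at -1 is a library without a count. The 12 genes left of the dotted line had no count in WT, while POU5F1, KLF17, CDX2, SLC28A3 and PRAP1 had none in day30-normal libraries and KRT8 and KRT18 were present in both groups.

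Muscle genes rose, with a spread among the fetal libraries. Of 18 tested skeletal muscle genes, 16 rose, 1 fell and 9 were on/off. The myogenic factors MYOD1 and MYOG had 33.8 to 36.6 CPM and 40.2 to 49.3 CPM in day30-normal libraries and none in WT. TNNI1, the slow-muscle troponin I, had 79.5, 93.4 and 137 CPM in day30-normal libraries and none in WT, at least 248-fold higher (edgeR adjusted p = 0.000561). The summed level of the muscle list was 830, 908 and 1321 CPM in day30-normal libraries and 64.2 and 109 CPM in WT libraries, so replicate 3 stood above the other fetal libraries. TNNC2, troponin C of fast muscle, was the member that fell (16.5, 19.7 and 31.3 CPM against 51.8 and 46.1 CPM in WT libraries), and its sign turned with library totals (log2 fold change 0.46) and with TPM (0.6). Of 10 tested cardiac genes 7 rose and 3 fell, beside 54.6% and 22.1% of all genes tested. TBX5 and HAND2, transcription factors of heart and limb, were at least 67.4-fold and 132-fold higher, while MYL3 and TNNI3, a myosin light chain and the cardiac troponin I, fell by 4.95 and 4.07 on the log2 scale.

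Neural genes rose. Of 17 tested genes, 16 rose and 0 fell, 10 were on/off, and the median log2 fold change was 10.95 (6.58 at the bounds). NES, the intermediate filament nestin of neural and muscle progenitors, had 1346, 1429 and 1524 CPM in day30-normal libraries and none in WT, at least 3420-fold higher (edgeR adjusted p = 0.000156). MAP2 and INA, a dendritic microtubule protein and a neurofilament-like protein of neurons, were at least 625-fold and 596-fold higher. PAX6, the homeobox gene of eye and forebrain, was low at 7.76, 6.27 and 6.97 CPM in day30-normal libraries, with none in WT. All 5 tested neural crest and glial genes rose, among them SOX10, the factor of neural crest and its glia, with 20.9, 20.1 and 19.9 CPM in day30-normal libraries and none in WT.

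Blood and vessel genes rose as well. Of 17 tested erythroid genes, 15 rose and 0 fell. HBE1, embryonic beta-like globin, had 494, 1158 and 968 CPM in day30-normal libraries and 2.2 and 0.572 CPM in WT libraries (log2 fold change 9.26 ± 0.79 SE, edgeR adjusted p = 0.00048). HBZ, embryonic alpha-like globin, had 327, 710 and 448 CPM in day30-normal libraries and none in WT. Both globins were lowest in day30-normal replicate 1. Of 13 tested endothelial genes, 12 rose and 0 fell. KDR, the main receptor for vascular endothelial growth factor, had 115, 114 and 119 CPM in day30-normal libraries and none in WT, at least 276-fold higher. Of 12 tested leukocyte genes 6 rose and 3 fell, shares near the 54.6% and 22.1% of all genes. PTPRC, the pan-leukocyte surface protein, had 0.209 to 0.314 CPM in day30-normal libraries and none in WT. Among myeloid genes of the list, FCER1G, AIF1 and ITGAM fell by 6.34, 5.96 and 4.89 on the log2 scale, whereas the complement genes C1QB and C1QC and the lysosomal membrane gene LAPTM5 rose. LAPTM5 had 36.1, 30.1 and 38.0 CPM in day30-normal libraries and none in WT. In bulk tissue fewer cells of a type and less RNA per cell cannot be told apart.

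The gene lists of internal organs were unevenly represented at day 30. Of 8 tested kidney genes, 7 rose and 0 fell, beside 54.6% and 22.1% of all genes tested. SIX2, the nephron progenitor factor, had 88.1, 100 and 106 CPM in day30-normal libraries and none in WT. It did not follow LHX1 of the same list in other fetuses. On the scale of all 22 libraries SIX2 had 64.0 and 37.6 CPM in day30-NF libraries, where LHX1 had 0 in both. Of 7 tested liver genes 3 rose and 3 fell. ALB (albumin) was low at 2.03, 2.3 and 1.52 CPM in day30-normal libraries with none in WT, while APOA1, an apolipoprotein of liver and gut, had 61.6, 47.5 and 65.6 CPM against 0.551 and 6.3 CPM in WT libraries. RBP4, the plasma carrier of retinol, also rose (log2 fold change 4.5), and APOA2, HNF4A and ITIH2 fell. AFP (alpha-fetoprotein) had 1.52, 0 and 1.01 CPM in day30-normal libraries and none in WT, and was not tested. Of 5 tested genes of gut and lung endoderm 4 rose and 1, CDX2, fell; SOX17, an endoderm and endothelial factor, had 14.9, 13.2 and 15.2 CPM in day30-normal libraries and none in WT.

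Imprinted genes and chromatin regulators mostly rose. Of 16 tested imprinted growth genes, 12 rose and 1 fell, beside 54.6% and 22.1% of all genes tested. PEG10, a retrotransposon-derived gene needed for the placenta in mice, had 1077, 1114 and 1242 CPM in day30-normal libraries and none in WT, at least 2727-fold higher (edgeR adjusted p = 0.000167). IGF2, the fetal growth factor, had 261, 259 and 259 CPM in day30-normal libraries and 0 and 3.43 CPM in WT libraries, and was named after its values were seen. The gene that fell was GRB10, a growth-factor adaptor (66.9, 60.7 and 55.5 CPM against 119 and 286 CPM in WT libraries), whose sign turned with TPM (log2 fold change 0.37). Of 14 tested genes of DNA methylation and early chromatin, 12 rose and 0 fell. Their median record length was 3338 bases, and 67.8% of all tested genes with records of 3188 to 3892 bases were higher at day 30. DNMT1, the maintenance methyltransferase, had 331, 372 and 332 CPM against 76.3 and 28.0 CPM in WT libraries (log2 fold change 2.72 ± 0.48 SE, edgeR adjusted p = 0.00519). UHRF1, which recruits DNMT1 to replicating DNA, had 378, 448 and 365 CPM against 0.276 and 0 CPM in WT libraries. The de novo enzyme DNMT3A had 97.9, 105 and 89.3 CPM against 68.7 and 5.65 CPM in WT libraries, and did not pass (edgeR adjusted p = 0.251); this level rests on 1 of its 20 annotated transcripts. DNMT3B had 5.01, 3.15 and 2.77 CPM in day30-normal libraries and none in WT, and DNMT3L had no count in all 5 libraries.

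Zero counts at day 6 also met genes that most cells use. HDAC1, EZH2 and SUZ12, a histone deacetylase and 2 subunits of the Polycomb complex PRC2, had no count in WT libraries, at 141, 140 and 140 CPM, 144, 140 and 124 CPM, and 67.7, 65.3 and 60.2 CPM in day30-normal libraries. FASN (fatty acid synthase) was likewise at 763, 877 and 819 CPM in day30-normal libraries and listed at 0 in WT. A gene listed at 0 is therefore not read here as absent from the embryo. As a comparison chosen after the data were seen, 96 genes of families that most cell types use reached 10 CPM in every day30-normal library, and 2 of them (2.08%; MED14 and MED16 of the Mediator complex) were off at day 6. Of 128 genes of the tissue and patterning lists that reached 10 CPM, 95 (74.2%) were off at day 6. These were the lists of HOX, skeletal muscle, neural, neural crest, cartilage and bone, fibroblast, endothelial, kidney, body-axis and T-box genes. Among lists left out, on/off genes of day 30 were 2 of 15 matched cardiac, 4 of 18 erythroid and 1 of 17 leukocyte genes. They were 0 of 16 matched liver, 1 of 14 gut and lung, and 0 of 9 epidermal genes. These counts are over all matched genes, whether or not they reached 10 CPM at day 30. They cannot be set against the 74.2%, which is over genes that did. Genes were also split into 3 groups by record length. Among the shortest records, up to 1895 bases, the counts were 19 of 29 tissue and patterning genes (65.5%), 213 of all 2101 genes (10.1%) and 0 of 56 broadly used genes; among the longest, over 3204 bases, they were 39 of 48 (81.2%), 789 of 2099 (37.6%) and 2 of 10. On the X chromosome 81 of 268 genes at 10 CPM in every day30-normal library (30.2%) were off at day 6, beside 23.3% of all genes. On/off genes of day 30 had a median record length of 3330 bases, against 1380 bases for those of day 6 and 2326 bases for all genes tested.

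**Figure D3:**
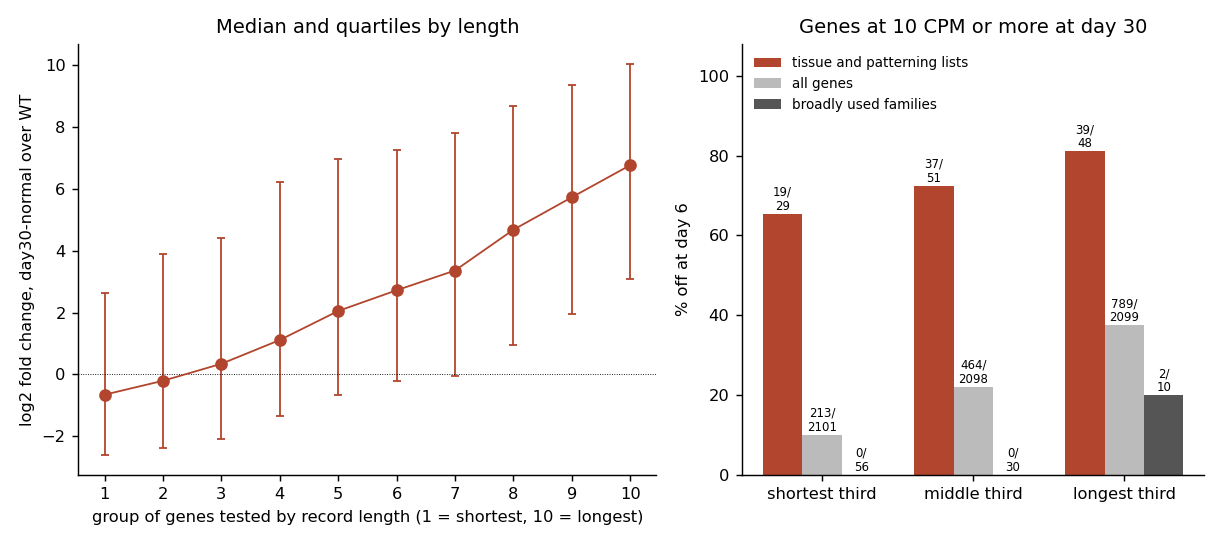
Left, median log2 fold change (day30-normal over WT) with quartiles in each of 10 length groups of the tested genes, -0.66 in the shortest and 6.77 in the longest. Right, bars starting at 0 give the percent of genes at 10 CPM or more in every day30-normal library that were off in WT. They are in 3 groups of record length, with counts above the bars. Tissue and patterning genes stand above all genes in each group. Their set leaves out the cardiac, erythroid, leukocyte, liver, gut and lung, and epidermal lists.

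Among genes of the blastocyst lineages, pluripotency and trophectoderm genes lay lowest. Of 9 tested pluripotency and epiblast genes, 5 fell and 3 rose, with a median log2 fold change of -4.17. POU5F1, the OCT4 transcription factor of pluripotent cells (chromosome 7, 23564654 to 23570691 in Sscrofa11.1), had no count in any day30-normal library and 1978 and 4767 CPM in WT libraries, at least 26088-fold lower at day 30 (edgeR adjusted p = 0.00186). KLF17, a Krüppel-like factor of the early embryo in humans, had none in day30-normal libraries and 80.2 and 205 CPM in WT libraries, at least 1101-fold lower. DPPA2 and TDGF1, an embryonic chromatin protein and a Nodal co-receptor, were at least 73.3-fold and 42.7-fold lower. Other pluripotency markers went another way. NANOG had no count in all 5 libraries, and SOX2, which is also a neural progenitor factor, had 23.5, 20.2 and 20.8 CPM in day30-normal libraries and none in WT. KLF4, also expressed in skin and vessels, and SALL4 rose too, by log2 fold changes of 3.14 and 3.89. DPPA3 had no matched record.

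Trophectoderm genes fell in most cases, 14 of 19 tested against 3 that rose, with a median log2 fold change of -5.37. CDX2, the transcription factor of early trophectoderm, had none in day30-normal libraries and 120 and 50.9 CPM in WT libraries, at least 673-fold lower (edgeR adjusted p = 0.00333). GATA2 and GATA3, trophoblast transcription factors that also act in blood and other tissues, were present at both stages and fell by 5.37 and 4.48 on the log2 scale. GATA3 had 5.23, 6.79 and 6.72 CPM in day30-normal libraries and 142 and 138 CPM in WT libraries. TFAP2A, a factor of both trophectoderm and neural crest, rose by a log2 fold change of 4.8. ATP1B1, a subunit of the sodium pump that fills the blastocyst cavity, and WNT7A, also a ligand of limb and nervous system, were the other members that rose.

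Keratins of simple epithelia were very abundant at day 6. KRT8 had 137, 135 and 105 CPM in day30-normal libraries and 58728 and 49132 CPM in WT libraries (log2 fold change -8.75 ± 0.21 SE, edgeR adjusted p = 0.000118). KRT18, its partner in the filaments of simple epithelia, had 21.9, 14.5 and 12.5 CPM in day30-normal libraries and 50720 and 50575 CPM in WT libraries. Together these genes took 0.0183 to 0.0248% of matched counts in day30-normal libraries and 6.22 and 4.67% in WT libraries. KRT5, a keratin of basal epidermis, had 9.79, 14.6 and 24.5 CPM in day30-normal libraries and none in WT, and KRT10, a keratin of differentiating epidermis, rose by a log2 fold change of 2.31. KRT19 did not pass (82.6, 81.0 and 80.3 CPM against 79.1 and 8.01 CPM in WT libraries). The remaining matched keratins of the list were KRT1, KRT4, KRT20 and KRT23, all under 1 CPM in day30-normal libraries and 0 in WT. KRT12 was at 0 in all 5. KRT32, matched but outside the list, had none in day30-normal libraries. On the scale of all 22 libraries it had 85.3 and 35.8 CPM in WT libraries.

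Claudins, the proteins that set the permeability of tight junctions, split. CLDN4, CLDN6 and CLDN7 fell by 6.53, 8.52 and 10.03 on the log2 scale. CLDN7 had 2.15, 2.92 and 1.9 CPM in day30-normal libraries and 2336 and 2643 CPM in WT libraries. CLDN1, CLDN5, CLDN10, CLDN11 and CLDN12 rose; CLDN5, the endothelial claudin, had 46.6, 41.6 and 57.2 CPM against 2.2 and 9.73 CPM in WT libraries. Over the whole list of claudins and junction genes 10 rose and 10 fell of 23 tested. The connexin genes lay at opposite ends: GJB5 was on/off at day 6 with 154 and 397 CPM in WT libraries against 0, 0 and 0.127 CPM in day30-normal libraries, and GJA1 was on/off at day 30 with 345, 343 and 297 CPM, at least 778-fold higher.

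Hypoblast genes were mixed, 9 of 14 tested higher and 4 lower, beside 54.6% and 22.1% of all genes tested. GATA4 had 0, 0.104 and 0 CPM in day30-normal libraries and 121 and 27.5 CPM in WT libraries, and GATA6 had 18.6, 20.3 and 16 CPM against 76.9 and 112 CPM. OTX2, a homeobox gene of epiblast, hypoblast and forebrain, had none in day30-normal libraries and 15.7 and 33.8 CPM in WT libraries. The list's rising members include FN1, SPARC and SOX17, which other tissues express too. Of 25 matched oocyte genes 5 passed the filter; 4 of these rose and 1 fell. Over the matched genes 19 had no count at day 30 and 10 none at day 6, and without the filter the list's median minus that of all genes was -6.98 in place of 1.9. The one that fell, the oocyte linker histone H1FOO, had none in day30-normal libraries and 48.6 and 48.0 CPM in WT libraries, at least 376-fold lower; ZP3 had none against 0.551 and 0.286 CPM in WT libraries, and GDF9 had 9.29, 9.61 and 11.2 CPM against 0 and 0.286 CPM.

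The other leading genes on at day 6 were of varied function. SLC28A3, a nucleoside transporter, had none in day30-normal libraries and 1720 and 1592 CPM in WT libraries, at least 12918-fold lower at day 30 (edgeR adjusted p = 0.000278). PRAP1, a small secreted protein of epithelia, had none against 1772 and 2048 CPM in WT libraries, and CDA, cytidine deaminase, none against 446 and 431 CPM. SLC39A4, a zinc importer, differed between the WT libraries themselves, at 181 and 2098 CPM, with none at day 30. TSPAN1, a tetraspanin, MIOX, the enzyme that oxidises inositol, ARG1, the arginase of the urea cycle, and ATP6V1G3, a subunit of the vesicular proton pump, were each under 0.5 CPM in every day30-normal library and above 100 CPM in both WT libraries. POLR2F, a subunit shared by the nuclear RNA polymerases that every cell uses, was listed at 0 in all 3 day30-normal libraries and had 594 and 613 CPM in WT libraries, so a 0 at day 30 is not read as absence either. The gene has 1 annotated record in the table used, and that record was matched.

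**Figure D4:**
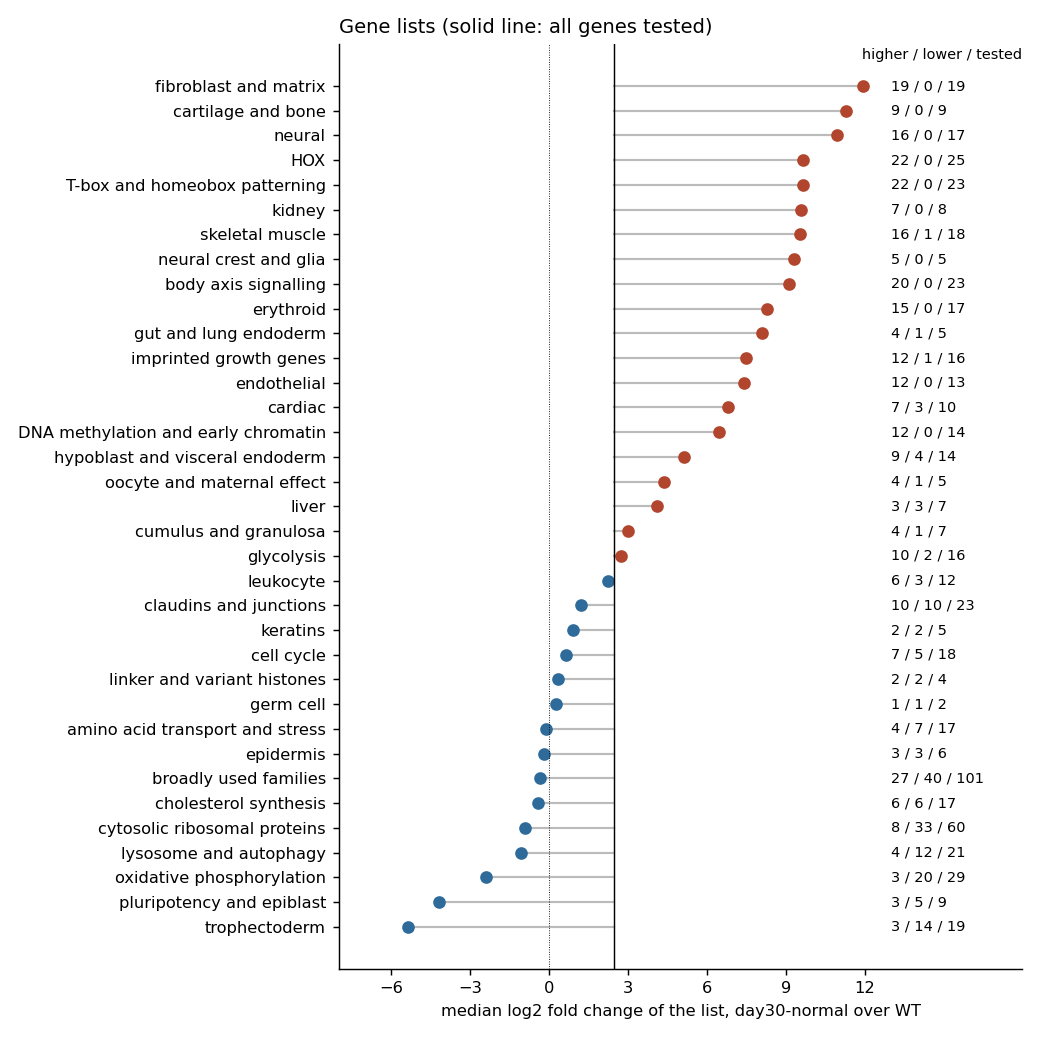
Median log2 fold change (day30-normal over WT) of 34 gene lists and, as a comparison chosen after the data were seen, of broadly used families; the solid line is the median of all genes tested, 2.47, and the dotted line is 0. Numbers at the right count the genes higher at day 30, lower at day 30 and tested; fibroblast and matrix genes are highest at 11.94 and trophectoderm genes lowest at -5.37.

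Oxidative phosphorylation genes lay below the median of all genes. Of 29 tested, 20 fell and 3 rose, with a median log2 fold change of -2.39; the counts were 16 lower and 8 higher with library totals and 14 lower and 10 higher with TPM. ATP5B, the catalytic beta subunit of ATP synthase, had 738, 692 and 731 CPM in day30-normal libraries and 22977 and 26716 CPM in WT libraries (log2 fold change -5.11 ± 0.12 SE, edgeR adjusted p = 0.000118). NDUFB9, a subunit of complex I, fell by 5.91 on the log2 scale, while UQCRB of complex III rose by 3.45. These records are short, with a median length of 840 bases. For cytosolic ribosomal proteins the direction turned with the scaling: 33 of 60 fell and 8 rose with TMM, 15 fell and 25 rose with library totals, and 13 fell and 33 rose with TPM.

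Several lysosomal genes were far below their level in WT. For CTSD, CTSZ and CTSH the size of that difference was not shared by the other embryos. CTSD, the aspartic protease cathepsin D, had 138, 149 and 152 CPM in day30-normal libraries and 41713 and 46732 CPM in WT libraries (log2 fold change -8.24 ± 0.13 SE, edgeR adjusted p = 0.000118). NPC2, which carries cholesterol out of lysosomes, had 35.3, 38.1 and 37.4 CPM against 8343 and 8322 CPM in WT libraries. CTSZ and CTSH fell by 7.29 and 4.96 on the log2 scale, whereas CTSC, CTSB and LIPA rose. On the scale of all 22 libraries CTSD had 301 to 1814 CPM in the 6 other embryo libraries. It had 43344 and 49574 CPM in WT and 130 to 146 CPM in day30-normal libraries. CTSZ had 1.58 to 254 CPM in those embryos against 2191 and 4438 CPM in WT, and was lower in both WT+Kdm4A libraries than in the day30-normal libraries (17.2 to 20.3 CPM). CTSH had 109 to 221 CPM against 749 and 852 CPM in WT, while NPC2 was at 8521 to 20898 CPM in the other embryos, against 8669 and 8828 CPM in WT. Over the list 12 of 21 fell and 4 rose with TMM, while 7 fell and 8 rose with library totals and 6 fell and 10 rose with TPM.

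Several genes of the amino acid and stress response were lower at day 30. ATF4, the transcription factor of the integrated stress response, had 258, 213 and 210 CPM in day30-normal libraries and 6998 and 5283 CPM in WT libraries (log2 fold change -4.76 ± 0.2 SE, edgeR adjusted p = 0.000167). DDIT3 and SESN2 of the same list fell by 5.58 and 5.12 on the log2 scale. ASNS, asparagine synthetase, had 0.687, 0 and 0 CPM against 105 and 196 CPM in WT libraries. SLC38A2 and SLC3A2, amino acid transporter genes, rose instead. The list of 17 held 7 lower and 4 higher genes with TMM, 6 and 8 with library totals, and 6 and 10 with TPM. CDKN1A, the cell cycle inhibitor p21, had 0, 0 and 1.3 CPM in day30-normal libraries and 228 and 198 CPM in WT libraries, and CDKN1B, the related inhibitor p27, had 78.3, 60.7 and 73.6 CPM against 0.827 and 0.572 CPM. Of 16 tested glycolysis genes 10 rose and 2 fell, beside 54.6% and 22.1% of all genes tested. The same shares stand beside the TMM counts of the remaining lists below. LDHB, a lactate dehydrogenase subunit, had 588, 584 and 593 CPM in day30-normal libraries against 5525 and 5632 CPM in WT libraries. Of the remaining lists, cell cycle genes were 7 higher and 5 lower of 18 (12 and 1 with library totals, 14 and 1 with TPM), cholesterol synthesis genes 6 and 6 of 17 (8 and 3 with either), epidermal genes 3 and 3 of 6, cumulus and granulosa genes 4 and 1 of 7, variant histones 2 and 2 of 4 and germ cell genes 1 and 1 of 2. GAPDH, chosen after its values were seen, was at 1756, 1759 and 1693 CPM against 1865 and 1804 CPM, a log2 fold change of -0.08 ± 0.1 (SE). That value holds with TMM only. The median over all genes tested moved from 2.47 with TMM to 4.05 with library totals, so GAPDH is not read here as unchanged.

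The on/off genes were then read in the 11 other fetal and 6 other embryo libraries, with levels scaled over all 22 libraries. Of the 1466 genes on at day 30, 1277 held at least 10 CPM in every day35-normal library, 1141 in every day30-abnormal library, 1092 in every day30-NF (naturally fertilized) library, 1071 in every day35-NF library and 820 in every day35-abnormal library. Under 0.5 CPM in every library were 924 of them in WT+Kdm4A, 1116 in XIST-KO and 824 in IVF embryos. Of these genes 237 (16.2%) held at least 10 CPM in all 14 fetal libraries and under 0.5 CPM in all 8 embryo libraries; without day35-abnormal replicate 2, which had a total count of 588882, there were 279 (19%). COL3A1, NES and HOXA6 were among the 237; HOXA6 ranged from 11.8 to 396 CPM over the fetal libraries and was highest in the day30-normal ones. The embryo libraries shared the same cDNA preparation, so the repeat over embryos does not separate stage from preparation.

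Of the 52 genes on at day 6, 41 held at least 10 CPM in every WT+Kdm4A library, 44 in every XIST-KO library and 40 in every IVF library. Under 0.5 CPM in every library were 39 of these 52 genes in day35-NF, 34 in day30-NF and 30 in day35-normal. In day35-abnormal there were 29 of the 52 genes and in day30-abnormal 20. In 8 of them (15.4%) all 8 embryo libraries held at least 10 CPM and all 14 fetal libraries under 0.5 CPM, among them KLF17, GJB5, SLC28A3 and POLR2F. POU5F1 was high in WT beside the other embryos: on the scale of all 22 libraries it had 164 and 249 CPM in WT+Kdm4A, 774 and 72.0 in XIST-KO, 56.2 and 57.4 in IVF, and 2056 and 5057 CPM in WT. CDX2 had 32.4 and 34.0 CPM in WT+Kdm4A, 128 and 19.9 in XIST-KO, 8.16 and 16.1 in IVF, and 125 and 54.0 CPM in WT. SLC39A4 had 4.8 and 6.94 CPM in WT+Kdm4A, 57.3 and 16.1 in XIST-KO, 0.976 and 0 in IVF, and 188 and 2225 CPM in WT, and H1FOO was at 0 in both WT+Kdm4A libraries.

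**Figure D5:**
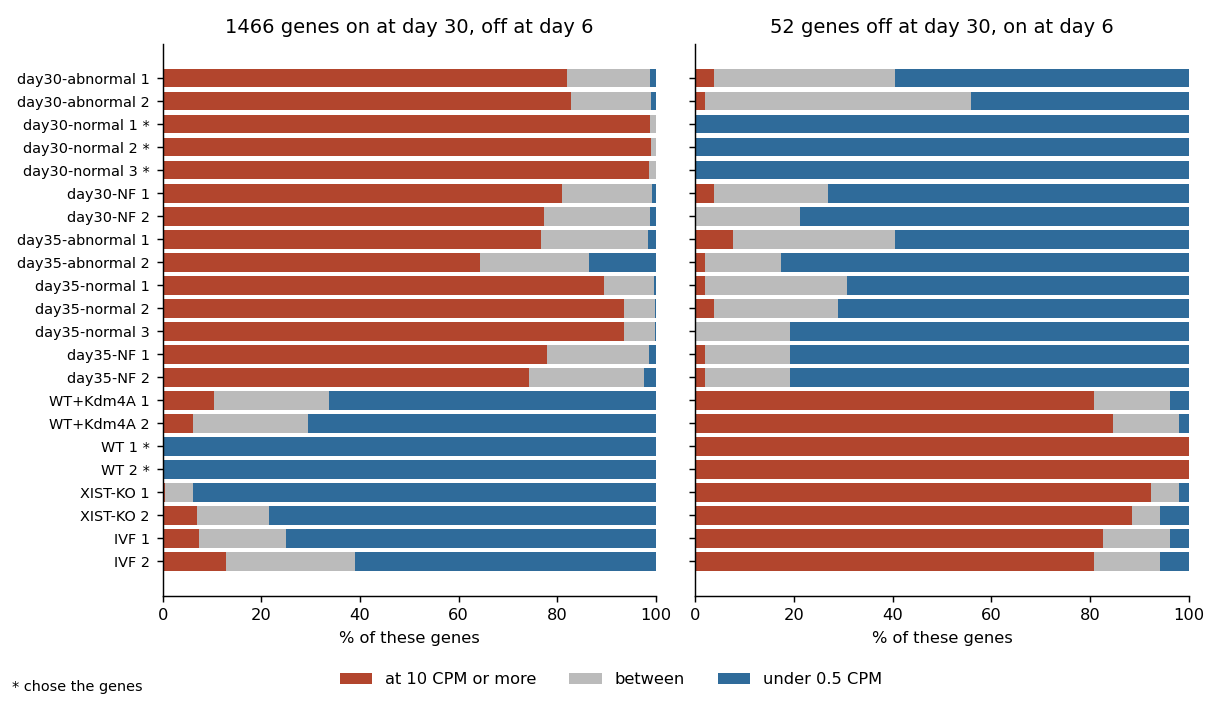
Share of the on/off genes at 10 CPM or more, between, and under 0.5 CPM in each of the 22 libraries (levels scaled over all 22), fetal libraries above embryo libraries, with asterisks at the 5 libraries that chose the genes. In the left panel the fetal libraries are mostly at 10 CPM or more and the embryo libraries mostly under 0.5 CPM. In the right panel the embryo libraries are mostly at 10 CPM or more. The fetal libraries there are mostly under 0.5 CPM, except day30-abnormal replicate 2, at 44.2%.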

How the data were processed

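Per the labels' protocols, RNA was extracted with Trizol, fetal libraries were made from total RNA with an RNA library kit, and embryo cDNA with a DNA library kit. The authors quantified transcripts with RSEM 1.2.4 against Sscrofa11.1, per the submitters' processing notes; aligner settings and strandedness are not stated in these sources. The deposited files hold, per the file headers, an expected count made by the authors' RSEM run for each transcript record, with TPM and FPKM by the authors beside them; deposited FPKM values were not used, and deposited record lengths served only for the length comparison.

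Of 65927 records, 25305 (38.4%) matched a RefSeq symbol by accession without version, and expected counts were summed over 14389 symbols and rounded; the counts of unmatched records (15.2 to 33.4% of a library) were left out, so a gene's level covers its matched records only. edgeR 4.0.16 (filterByExpr, TMM, quasi-likelihood F-test, Benjamini-Hochberg at 0.05) was fitted to the 5 libraries. The code was also run on simulated data in which a small part of the genes changed, with either direction equally likely. That run cannot speak to the scaling where most genes differ and most of them in 1 direction. TMM factors were 1.536 to 1.567 in day30-normal and 0.4685 and 0.5682 in WT libraries, so CPM do not sum to the same total in every library. Alternatives were DESeq2 1.42.0, limma 3.58.1 (voom, and log2(TPM + 1) from the authors' deposited TPM), other scalings and filters, all 22 libraries, the replicate block, leaving out each library, and matching with the version. Named genes were the 15 most abundant on/off genes in each direction, up to 4 genes per list and direction past the threshold whose mean log2 CPM reached 1, fixed lineage markers, and members of families described in full. Members and lists were chosen with earlier results of these data known. No sequence is shown. A few genes that this rule names are not reported here.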

Additional observations from a re-analysis of the deposited data

Results flagged for a closer look

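Among libraries outside the comparison, GATA4, off in day30-normal fetuses, was at 10 CPM or more in every day30-abnormal library (mean 56.8 CPM). CTNS, the lysosomal cystine transporter, off in day30-normal fetuses, was at 10 CPM or more in every day35-NF library (mean 12.8 CPM). Of the 1466 genes on at day 30 and off in WT, some reached 1 CPM in other embryos: 447 and 353 in WT+Kdm4A replicates 1 and 2, 57 and 281 in XIST-KO, and 320 and 517 in IVF. Depth differed among these libraries, and its part in these counts was not tested.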

How the results depend on the processing

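Genes higher at day 30 numbered 2747 with the replicate block, 1353 with accession and version matched (2709 genes tested) and 2490 among genes with every annotated transcript matched. Genes lower at day 30 numbered 1125 with library totals, 966 with limma on log2(TPM + 1), 1204 with the replicate block, 653 with version matching, 1088 against a fold of 4 and 1270 with every transcript matched. Genes on at day 30 were 828 at 20 CPM against 0.2 CPM, 406 with version matching and 723 with every transcript matched. Genes on at day 6 were 96 at 5 CPM against 1 CPM, 27 at 20 CPM against 0.2 CPM, 32 by TPM, 17 with version matching and 28 with every transcript matched. Matching with the version and matching every transcript leave fewer genes, and the choice of genes with every transcript matched was made after seeing the data; the cause of the other shifts was not tested. Leaving out 1 library gave 4304 to 5943 higher, 1724 to 2485 lower, 1498 to 1882 on at day 30 and 57 to 83 on at day 6 (83 without WT replicate 1); a lone WT library is then assumed to vary like the others. Replicate numbers gave no sign of a pairing: over the 2 shared numbers deviations correlated at -0.00197 and -0.00219. With 2 WT libraries the deviations of one mirror those of the other, so these values cannot decide whether samples were paired. Of 233 named genes tested, 160 kept direction and call under every alternative run.

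Relative to all genes, list medians turned sign for pluripotency (version matching, 1.43), oocyte genes (no filter -6.98, all 22 libraries -8.35), cardiac (version -0.47), liver (TPM -0.98, voom -0.56, from -2.67 to 2.97 over the fits leaving out 1 library, negative without day30-normal replicate 1, at -2.31, or 3), gut and lung (TPM -0.36, version -3.52), epidermis (no filter 0.84, all libraries 1.04), cell cycle (TPM 0.27, version 1.87), claudins (version 1.6) and keratins (no filter 1.67, TPM 0.54, all libraries 1.74). Cumulus and granulosa, leukocyte and glycolysis genes lay near the median of all genes and crossed it under some alternatives (with TPM -0.78 for cumulus and granulosa); 22 of 34 lists lay on 1 side in every fit. Log2 fold changes turned sign for TNNC2 (library totals 0.46, TPM 0.6), H3F3A (0.22, 0.4) and TPI1 (0.43, 0.78), for GRB10 (0.37), CCNE1 (0.02), CDK4 (0.15) and MVK (0.21) with TPM, and for DNMT1 with version matching (-0.39). The cause was not tested.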
